A study of Mus musculus with 42 samples.

Results

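The 44 genes described here encode proteins that copy DNA or drive mitosis. They were chosen by symbol for these roles, not by a measured value, and all 44 were found among the 21897 protein-coding genes of the mouse annotation used. They comprise 12 genes that load or activate the replicative helicase, 7 for polymerases, the sliding clamp, its loader and Okazaki fragment enzymes, 3 for deoxynucleotide supply, 8 cyclins and cyclin-dependent kinases, 3 E2F transcription factors and 11 genes of mitosis and chromosome structure. Chromatin immunoprecipitation with sequencing (ChIP-seq) was done on bone marrow-derived macrophages with antibodies to RNA polymerase II (Pol II) and to H3K27ac, the acetylation of lysine 27 on histone H3 that marks active promoters and enhancers. The cells came from male C57Bl6/J mice aged 6-12 weeks of the wild type (WT) or of a line without Nur77 (KO), the orphan nuclear receptor encoded by Nr4a1. Marrow was differentiated for 7 days in L929-conditioned medium, and lipopolysaccharide (LPS, 100 ng/ml), a bacterial product that activates macrophages, was given for 0, 1 or 18 h. Genotype and time made 6 groups, with 3 libraries for each antibody and 1 input in every group (42 libraries).

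The KO line was made by crossing floxed Nr4a1 mice with CMV-Cre mice, whose Cre acts throughout the body, so the deletion is not limited to macrophages, and WT littermates were the controls. The genotype label of the KO libraries names Cre, whereas the article describes KO animals that no longer carried it, and Cre and the loss of Nur77 cannot be told apart here. The article calls the 3 libraries of a group biological replicates, but neither it nor the labels say whether they came from separate animals, so the p-values measure the spread between these libraries.

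A cell commits to division when D-type and E-type cyclins with their kinases release E2F factors, which switch on the genes of the replication machinery. MCM proteins are loaded at origins by Cdc6 and Cdt1 in G1, and Cdc45 and the GINS complex turn them into a running helicase at the onset of S phase. Cyclin A and B with Cdk1, and the kinases and motor proteins of mitosis, follow in G2 and M. Macrophages grown from marrow still divide in response to the growth factor in L929 medium, and LPS is known to stop their division.

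For Pol II, a gene was given the summed deposited signal of enriched regions over its body and the 500 bp to either side, in tags per 10 M tags of the library (M, mega). The H3K27ac value is the same sum within 2500 bp of the gene start. A 0 means that no region was called there, not that no read lay there. Changes are differences of log2(tags + 10), tested with limma across all genes, and changes with an adjusted p (Benjamini-Hochberg) under 0.05 were called. "Rose", "fell", "higher" and "lower" in counts refer to called changes. In bulk chromatin, fewer dividing cells and less Pol II per cell cannot be told apart.

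The Pol II libraries held 21.7 to 36.1 M tags, the H3K27ac libraries 13.5 to 55.4 M and the inputs 25.6 to 45.3 M. Every KO library of H3K27ac was deeper than every WT library of its hour. The depths were 35.0 to 38.8 M against 21.4 to 23.1 M at 0 h, 23.6 to 47.5 M against 13.5 to 20.9 M at 1 h, and 31.3 to 55.4 M against 15.0 to 31.1 M at 18 h. For H3K27ac, depth and genotype cannot be told apart. Nr4a1 itself, the targeted gene, had 189, 188 and 208 tags of Pol II in WT cells at 0 h and 87.8, 76.1 and 70.2 in KO cells, so the gene was lower in KO but still carried Pol II (log2 difference -1.22 ± 0.17 SE, adjusted p = 0.00012). At 1 h it had 25.5, 23.0 and 30.4 in WT and 33.5, 39.0 and 36.6 in KO, every library labelled KO above every WT library. This is the reverse of the order at 0 h, although the difference was not called (log2 difference 0.36 ± 0.17 SE, limma's adjusted p = 0.089). At 18 h it had 7.46, 5.98 and 0 in WT and was listed at 0 in all 3 KO libraries. KO below means the libraries labelled KO. Which exons were deleted is not given in the sources used here, so Pol II over Nr4a1 does not test the genotype. All 8 macrophage markers carried Pol II in every group, and their summed value ran from 22549 to 48880 tags across libraries. Of the markers of other cells, both of progenitors (Kit and Cd34) and 4 of 7 of neutrophils (Ly6g, S100a9, Elane and Mpo) were at 0 in all Pol II groups. Of the 3 T cell markers Cd3e and Cd3g were at 0 and Cd3d was not, with sums of 83.3 to 97.0 tags in WT and 78.3 to 90.3 in KO before LPS, 23.1 to 27.4 and 30.4 to 41.8 after 1 h, and 64.8 to 69.9 and 48.1 to 55.0 after 18 h. Of the 3 erythroid markers Gata1 and Hba-a1 were at 0 and Klf1 had 14.2 to 18.9 in WT and 17.8 to 27.4 in KO before LPS, 0 after 1 h, and 23.8 to 31.7 and 17.6 to 20.3 after 18 h. Of the 3 fibroblast markers Col1a1 and Col1a2 were at 0 and Pdgfrb had 30.3 to 60.4 in WT and 26.8 to 40.7 in KO before LPS and at most 17.8 later. The 7 neutrophil markers summed to 26.1 to 31.9 tags in WT and 43.0 to 52.6 in KO at 0 h, 0 to 8.10 and 8.62 to 17 at 1 h, and 5.64 to 7.63 in WT and 0 in KO at 18 h. In H3K27ac, where Elane was above 0 in every group, they summed to 72.4 to 86.4 tags in WT and 161.8 to 178.9 in KO at 0 h, 59.6 to 70.4 and 105.4 to 123.7 at 1 h, and 54.1 to 66.3 and 49.5 to 119.2 at 18 h. The 3 dendritic cell markers summed to 258 to 337 tags in WT at 0 h, 295 to 323 in KO at 0 h, 1143 to 1375 in both genotypes at 1 h, and 381 to 461 in WT and 408 to 962 in KO at 18 h. The part of such cells in the results was not tested.

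Some libraries stood apart. The H3K27ac library labelled KO 1 h replicate 1 correlated at r = 0.910 and 0.912 with the other libraries of its group but at 0.978 to 0.980 with the WT libraries of 1 h, over log2 values of all genes. The H3K27ac library labelled KO 18 h replicate 1 reached only 0.913 and 0.914 with its own group. Values without these libraries are given for the H3K27ac counts, correlations and named genes that rest on them. Among the Pol II libraries, WT 0 h replicate 1 had 61.6% of its tags in regions, against 71.5% and 71.1% in the other WT libraries of 0 h. The KO input of 18 h yielded 27554 regions, against 64725 to 108461 in the other inputs.

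Promoters are shown for the 6 members with the lowest adjusted p at 18 h of LPS in WT cells whose promoter was in the RefSeq table (build GRCm38.p6), since these genes lost Pol II together; for Rfc4 most tags came from regions that also cover Eif4a2. Each run covers 250 bases before to 50 bases after the start, 5′ to 3′ on the strand of the gene, and capitals mark the letters of 3 motifs. The motifs were E2F (spelled TTCCCGC, else spelled TTCGCGC, else spelled TTGGCGC, else spelled TTGCCGC), the cell cycle homology region CHR (spelled TTTGAA, else spelled TTCGAA) and CCAAT, each searched on both strands, and the E2F letters TTGGCGC can share TTGG with a CCAAT read on the other strand. Rrm2 (chr12:24708004-24708303, plus strand), the small subunit of ribonucleotide reductase, held 1 E2F and 1 CCAAT match. Mcm6 (chr1:128359656-128359955, minus strand), a helicase subunit, held 5 E2F and 2 CCAAT matches. Overlapping E2F letters are counted singly, so the stretch TTGGCGCGAA in Mcm6 and TTGGCGCCAA in Mcm3 each count as 2 E2F matches, not as separate sites. Rfc4 (chr16:23127681-23127980, minus strand), of the clamp loader, held 1 E2F match. Tyms (chr5:30073576-30073875, minus strand), thymidylate synthase, held 0 matches, which says only that these letters are not in this window. Mcm3 (chr1:20820263-20820562, minus strand), also of the helicase, held 3 E2F and 3 CCAAT matches. Top2a (chr11:99024140-99024439, minus strand), the topoisomerase that untangles chromosomes, held 4 CHR and 6 CCAAT matches.
Rrm2: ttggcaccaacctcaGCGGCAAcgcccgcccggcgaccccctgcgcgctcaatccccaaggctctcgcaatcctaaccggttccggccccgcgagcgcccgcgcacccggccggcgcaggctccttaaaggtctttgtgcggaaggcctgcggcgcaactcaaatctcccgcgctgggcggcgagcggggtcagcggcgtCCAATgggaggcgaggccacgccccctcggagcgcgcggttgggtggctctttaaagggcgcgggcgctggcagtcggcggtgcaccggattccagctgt
Mcm6: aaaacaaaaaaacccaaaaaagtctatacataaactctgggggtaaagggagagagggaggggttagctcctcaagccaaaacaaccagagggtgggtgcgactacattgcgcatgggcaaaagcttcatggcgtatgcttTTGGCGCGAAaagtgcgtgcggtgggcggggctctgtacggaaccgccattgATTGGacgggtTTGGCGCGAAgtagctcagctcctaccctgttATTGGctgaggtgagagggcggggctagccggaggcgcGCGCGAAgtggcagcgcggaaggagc
Rfc4: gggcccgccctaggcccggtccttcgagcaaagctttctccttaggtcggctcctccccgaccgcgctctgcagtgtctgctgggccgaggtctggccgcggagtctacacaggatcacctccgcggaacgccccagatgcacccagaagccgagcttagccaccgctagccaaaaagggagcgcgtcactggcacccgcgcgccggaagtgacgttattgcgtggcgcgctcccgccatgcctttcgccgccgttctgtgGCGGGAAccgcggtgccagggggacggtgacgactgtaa
Tyms: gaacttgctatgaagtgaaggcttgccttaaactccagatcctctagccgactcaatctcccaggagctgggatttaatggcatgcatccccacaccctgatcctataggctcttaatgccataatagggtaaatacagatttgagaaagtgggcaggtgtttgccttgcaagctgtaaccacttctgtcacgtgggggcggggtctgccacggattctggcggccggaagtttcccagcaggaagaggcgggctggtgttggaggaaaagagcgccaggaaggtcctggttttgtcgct
Mcm3: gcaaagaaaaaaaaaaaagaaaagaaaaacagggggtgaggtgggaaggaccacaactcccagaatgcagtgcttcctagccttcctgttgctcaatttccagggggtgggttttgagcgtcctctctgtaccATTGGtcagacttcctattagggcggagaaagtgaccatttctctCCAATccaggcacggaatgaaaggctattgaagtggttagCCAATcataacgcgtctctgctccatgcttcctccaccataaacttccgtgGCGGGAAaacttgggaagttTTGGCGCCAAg
Top2a: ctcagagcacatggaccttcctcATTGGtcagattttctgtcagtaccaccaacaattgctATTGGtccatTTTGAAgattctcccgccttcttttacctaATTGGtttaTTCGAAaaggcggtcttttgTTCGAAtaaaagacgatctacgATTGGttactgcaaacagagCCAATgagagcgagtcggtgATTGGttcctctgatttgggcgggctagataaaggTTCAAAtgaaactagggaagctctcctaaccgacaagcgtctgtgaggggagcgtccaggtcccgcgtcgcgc

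Of the 44 members, 36 had a promoter entry, and Pole, Ccna2, Gins2, Mcm4, Ccne2, Aurkb, Ccnd1 and Gins1 had none. E2F letters were in 17 of these 36 (47.2%), against 12.6% of all 16505 promoters of the same length. CHR letters were in 16 members (44.4%), against 17.3%, and CCAAT in 27 (75.0%), against 38.8%. The motifs were spread unevenly by role: of the 9 helicase genes with an entry 6 held E2F and 3 held CHR letters, whereas of the 10 mitosis genes 1 held E2F and 8 held CHR letters. These matches are a description of letters, not of binding.

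LPS lowered Pol II on nearly all of these genes within 1 h. In WT cells 42 of 44 members fell and 2 rose, with a median log2 change of -1.64, against 68.4% lower, 18.6% higher and a median of -0.82 over the 13240 genes tested. All 12 helicase genes, all 7 polymerase and clamp genes, all 3 deoxynucleotide genes and all 8 cyclins and kinases fell, as did 2 of 3 E2F genes and 10 of 11 mitosis genes. In KO cells 40 of 44 members fell and 2 rose, with a median of -1.22, against 62.2% lower, 20.6% higher and a median of -0.62 over 13267 genes. Set relative to the median change of all genes, 32 members were lower and 4 higher in WT, against 38.2% and 37.2% of all genes, and 29 lower and 5 higher in KO, against 38.3% and 36.3%. The members' summed Pol II went from 10898 ± 581 tags (SD, n = 3) to 4862 ± 164 in WT, and from 8862 ± 349 to 5339 ± 31 in KO.

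Cdk1 (mm10, chr10:69335146-69352938), the kinase that starts mitosis, went from 257, 283 and 280.4 tags at 0 h to 0, 0 and 7.05 at 1 h in WT cells. In KO cells Cdk1 went from 185, 192 and 220.0 to 0, 7.89 and 0. Only 1 library of each genotype still had a Cdk1 region at 1 h, so the change in Cdk1 depends on the pseudocount of 10 (log2 change -4.57 ± 0.21 SE, adjusted p = 1.3e-12 in WT, and log2 change -4.10 ± 0.21 SE, adjusted p = 6.6e-12 in KO). Ccnd1 (chr7:144929931-144939925), cyclin D1 of the G1 phase, had 1319, 1342 and 1436 tags at 0 h and 123, 94.3 and 99.1 at 1 h in WT. The Ccnd1 values in KO were 1145, 1054 and 958 at 0 h and 106, 123 and 116 at 1 h. In each genotype every library of 1 h lay far under every library of 0 h (log2 change -3.58 ± 0.11 SE, adjusted p = 5.1e-15 in WT, log2 change -3.09 ± 0.11 SE, adjusted p = 4.3e-14 in KO).

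Ribonucleotide reductase lost its Pol II as well. Rrm1, its large subunit (chr7:102441695-102469771), had 193, 209.8 and 193 tags at 0 h and 10.5, 6.67 and 16.7 at 1 h in WT (log2 change -3.32 ± 0.27 SE, adjusted p = 2.8e-09). Rrm2 (chr12:24708241-24714146) had 188, 208 and 212 at 0 h and 13.1, 28.7 and 18.1 at 1 h in WT (log2 change -2.86 ± 0.20 SE, adjusted p = 5.4e-10). In KO, Rrm2 had 125, 139 and 106 tags at 0 h and was listed at 0 in all 3 libraries of 1 h, so the fitted change there (-3.73) depends on the pseudocount and is no bound. E2f2 (chr4:136172394-136196057), an activating E2F, went from 135, 146 and 161 to 14.6, 0 and 5.81 in WT (log2 change -3.32 ± 0.33 SE, adjusted p = 5.3e-08) and from 104, 101 and 89.7 to 0, 8.36 and 0 in KO (log2 change -3.14 ± 0.33 SE, adjusted p = 1.3e-07). For both Rrm genes and E2f2 the libraries of 0 h and 1 h did not overlap in either genotype.

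E2f8 and Mki67 went the other way. E2f8 (chr7:48866429-48881596), a repressor among the E2F factors, had 128, 191 and 145 tags at 0 h and 641, 606 and 648 at 1 h in WT, and 72.2, 58.8 and 52.8 at 0 h and 776, 713 and 784 at 1 h in KO. Every library of 1 h was over 3 times as high as any library of 0 h, and regions then covered 100% of the gene in both genotypes (log2 change 1.98 ± 0.20 SE, adjusted p = 4.5e-08 in WT, log2 change 3.44 ± 0.20 SE, adjusted p = 2.7e-11 in KO). By 18 h E2f8 was at 15.7, 33.7 and 39.2 tags in WT, below every library of 0 h. Mki67 (chr7:135689784-135716361), the gene of the Ki-67 proliferation antigen, had 633, 635 and 491 tags at 0 h and 1188, 1183 and 1188 at 1 h in WT (log2 change 1.01 ± 0.11 SE, adjusted p = 8.1e-08), and 484, 388 and 351 at 0 h and 1529, 1463 and 1481 at 1 h in KO (log2 change 1.86 ± 0.11 SE, adjusted p = 2.4e-11). At 1 h all Mki67 tags came from a single region of 76.3 to 80.5 kb that also spans the neighbouring gene Ptpre. Leaving out such long neighbouring regions put every library of 1 h at 0. The resulting changes (-4.84 in WT and -4.39 in KO) were fixed by that step and are no measure of a fall. The Mki67 rise is therefore not separable from its neighbour in these data.

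**Figure D1:**
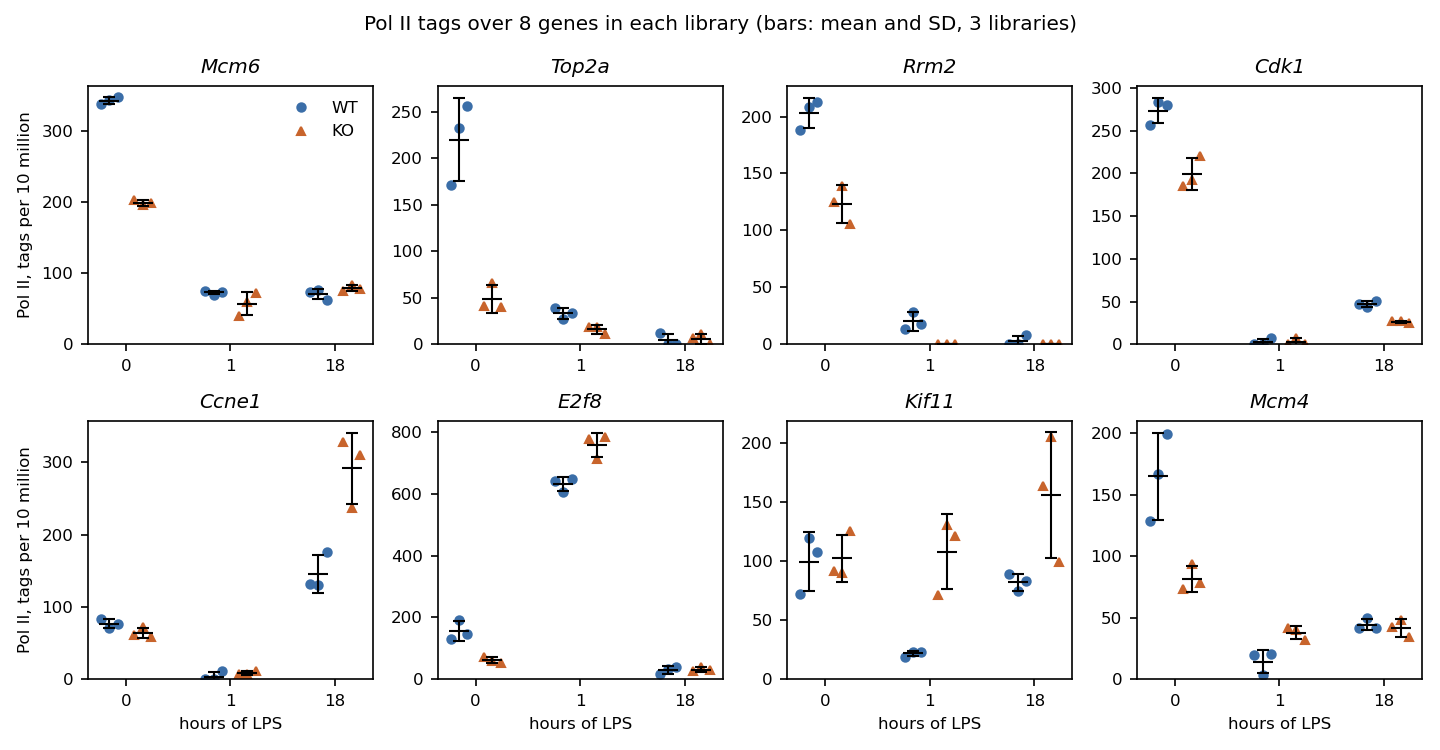
Pol II over 8 of the genes (tags per 10 M, vertical axes) in each of the 3 libraries of a group, with the mean and SD as bars, for WT and KO at 0, 1 and 18 h of LPS. Mcm6, Top2a, Rrm2, Cdk1 and Mcm4 are highest in WT at 0 h, whereas E2f8 peaks at 1 h and Ccne1 is highest in KO at 18 h.

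At 18 h the genes had diverged. In WT cells 29 of 44 members were below 0 h, 3 were above it and 12 did not pass the test, with a median change of -0.60, against 33.3% lower, 33.2% higher and a median of 0.00 over 13359 genes. In KO cells 28 members fell and 5 rose, with a median of -0.76, against 42.1% lower, 28.0% higher and a median of -0.18 over 13417 genes. The 1 h and 18 h comparisons share the 0 h libraries. Deoxynucleotide genes had the lowest median by role in WT, at -3.28, followed by the cyclins and kinases at -1.59, while the medians of the other 4 roles lay between -0.51 and -0.29. The summed Pol II of the 44 genes was 6426 ± 87 tags in WT and 5760 ± 242 in KO.

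Rrm2, Top2a, Tyms and Mcm3 were at or near 0 at 18 h. Rrm2 had 0, 0 and 7.82 tags at 18 h in WT, against 188, 208 and 212 at 0 h (log2 change -4.13 ± 0.20 SE, adjusted p = 6.6e-12), and was listed at 0 in all 3 KO libraries. Top2a (chr11:98992943-99024189) had 12.5, 0 and 0 tags, against 171, 233 and 257 (log2 change -4.11 ± 0.31 SE, adjusted p = 1.9e-09). Tyms (chr5:30058202-30073617) had 9.10, 10.1 and 6.48 tags against 148, 183 and 179 in WT (log2 change -3.28 ± 0.21 SE, adjusted p = 2.4e-10) and 0, 5.65 and 7.23 against 92.4, 88.1 and 79.4 in KO (log2 change -2.79 ± 0.21 SE, adjusted p = 1.8e-09). Mcm3 (chr1:20802968-20820312) had 71.7, 90.8 and 73.0 tags at 0 h and was listed at 0 in every WT library of 18 h, so its fitted change (-3.14) is no bound. These are genes of 3 roles, and each promoter is among those printed above.

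In KO cells the largest decreases at 18 h were in Rrm2, Tyms, Cdk1 and Ccnb2. Cdk1 had 27.1, 27.1 and 25.2 tags at 18 h against 185, 192 and 220.0 at 0 h (log2 change -2.52 ± 0.21 SE, adjusted p = 8.7e-09), whereas WT cells had 47.1, 43.3 and 50.9 at 18 h. Ccnb2, a B-type cyclin of mitosis, had 45.1, 42.3 and 34.3 against 508, 449.9 and 491 (log2 change -3.29 ± 0.22 SE, adjusted p = 4.3e-10), without overlap. Long regions that also span Myo1e and Rnf111 supplied much of the Ccnb2 value at 0 h, and without them the change in Ccnb2 was no longer called.

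The few genes above their 0 h level at 18 h included cyclin E1. Ccne1 (chr7:38097984-38107534), which with Cdk2 starts S phase, went from 83.2, 71.1 and 75.7 tags at 0 h through 0, 0 and 10.5 at 1 h to 131, 129.6 and 176 at 18 h in WT (log2 change 0.83 ± 0.22 SE, adjusted p = 0.0035 for 18 h against 0 h). In KO cells Ccne1 went from 61.6, 71.7 and 58.7 through 6.62, 6.83 and 11.4 to 328, 236 and 309.7 (log2 change 2.02 ± 0.22 SE, adjusted p = 3.5e-07). The 18 h libraries were above all libraries of 0 h in both genotypes. Within 500 bp of the start, where Pol II pauses, Ccne1 did not rise in KO (log2 change -0.39), and the WT rise was not called with a pseudocount of 1. With long neighbouring regions left out the change was 0.83 in WT and 0.94 in KO and neither was called, although of these libraries the setting altered only KO 18 h replicate 2 (236 to 16 tags).

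Mcm5 and Gins1 also stood higher at 18 h in both genotypes. Mcm5 (chr8:75109569-75128439), a helicase subunit, had 165, 188 and 125 tags at 0 h, 10.5, 0 and 7.73 at 1 h, then 385, 415 and 429.6 at 18 h in WT (log2 change 1.33 ± 0.21 SE, adjusted p = 2.3e-05 for 18 h), and 260.3, 367 and 321 at 18 h in KO against 68.6, 78.2 and 80.8 at 0 h (log2 change 1.92 ± 0.21 SE, adjusted p = 2.5e-07). All Mcm5 tags at 18 h came from regions of 28.3 to 28.9 kb that lie over Hmox1 and reach 0.75 to 0.77 kb into the Mcm5 window. Without them every library of 18 h was at 0, so the changes of -4.02 in WT and -3.10 in KO depend on the pseudocount and are no bound. Gins1, of the GINS complex, had 354, 369 and 357 at 0 h and 501, 521 and 524 at 18 h in WT (log2 change 0.51 ± 0.10 SE, adjusted p = 0.00017) and 347, 382 and 420.4 at 0 h and 516, 545 and 521 at 18 h in KO (log2 change 0.46 ± 0.10 SE, adjusted p = 0.00041). From 30.1% to 46.2% of Gins1 tags at 0 h and 18 h came from regions that also cover Abhd12 and Pygb. In WT the rise in Gins1 was not called without long neighbouring regions and turned to -0.37 with the input subtracted and to -0.04 at the start, and in KO it turned to -0.19 at the start.

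In KO cells 2 further genes rose by 18 h. Mcm10, which helps to activate the helicase, had 56.2, 64.8 and 56.5 tags at 0 h and 86.7, 98.5 and 90.0 at 18 h (log2 change 0.56 ± 0.17 SE, adjusted p = 0.0072). Rfc3, of the clamp loader, had 76.1, 101 and 66.1 at 0 h and 99.1, 115 and 113 at 18 h (log2 change 0.40 ± 0.16 SE, adjusted p = 0.034). Without replicate 1 both calls were lost, as they were along the gene body, and that of Rfc3 also without replicate 3 and with a common floor. The Rfc3 groups overlapped, with the highest library of 0 h at 101 tags and the lowest of 18 h at 99.1. In WT the changes of Mcm10 (0.11) and Rfc3 (-0.21) did not pass the test, and the difference between genotypes passed for neither.

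Across time, 27 of 44 members in WT were lower at both 1 h and 18 h, against 27.1% of 13137 genes, and 12 were lower at 1 h alone, against 25.2%. Ccne1, Gins1 and Mcm5 were lower and then higher, as were 16.6% of all genes, and E2f8 and Mki67 higher and then lower, as were 3.8%. In KO 27 were lower at both times, against 32.5% of 13153 genes, and 8 at 1 h alone, against 19.3%. Ccne1, Gins1, Mcm5, Mcm10 and Rfc3 were lower and then higher (11% of all genes), E2f8 was higher and then lower (4.78%), and Mki67 was higher at 1 h alone (3.85%). Bub1b, a kinase of the spindle checkpoint, and Kif11, the motor that pushes spindle poles apart, were called at neither time in KO.

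**Figure D2:**
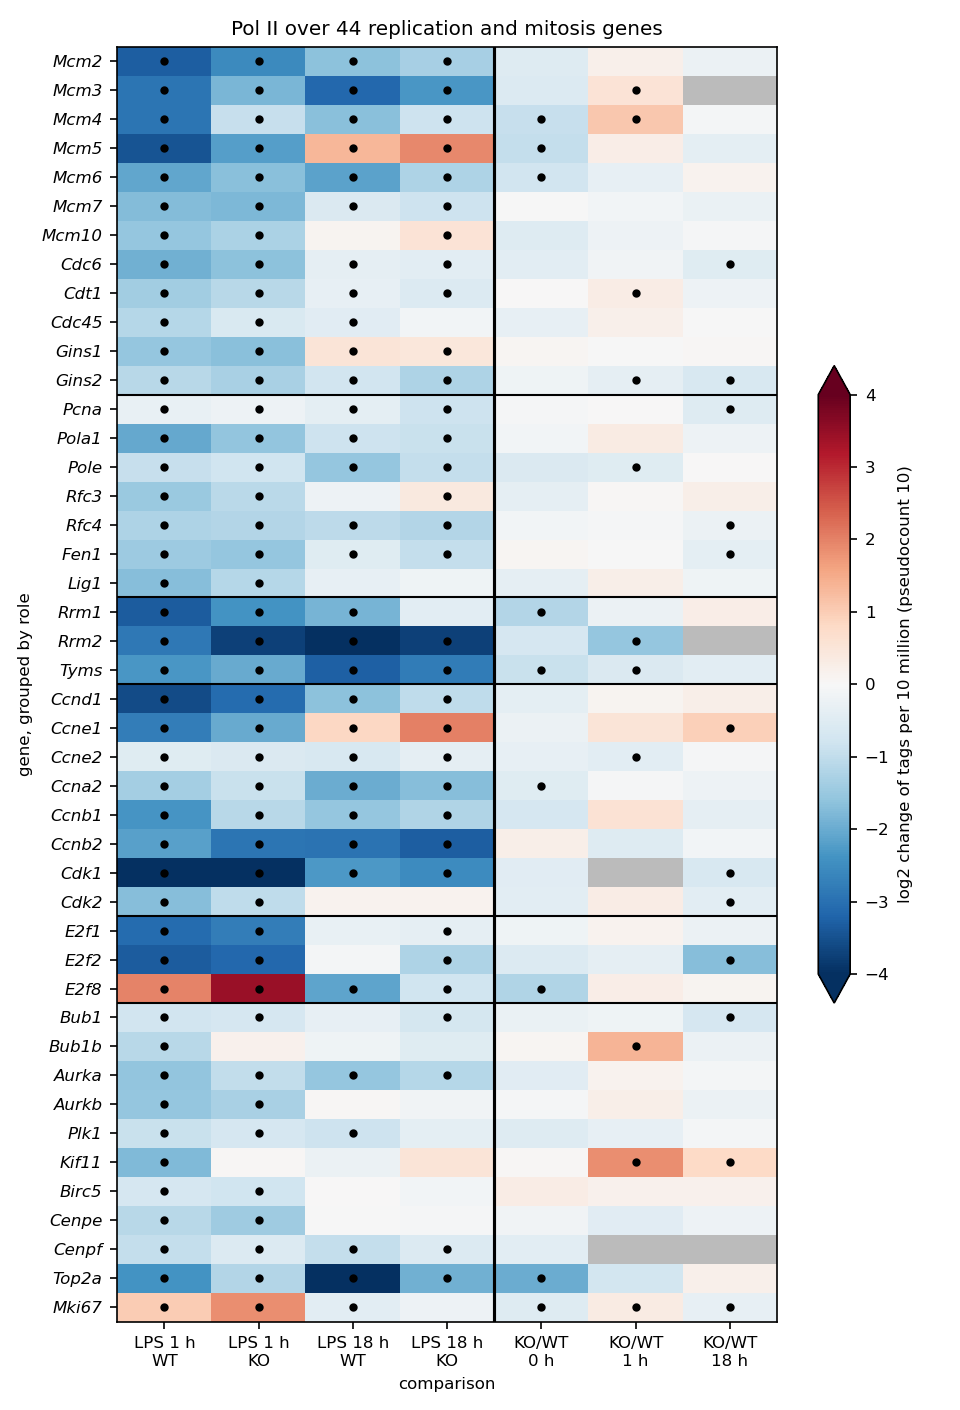
Change in Pol II (log2, colour scale) of the 44 genes, in rows by role, in the 7 comparisons between groups, with a black dot where limma's adjusted p was under 0.05 and grey where a gene was not tested. The 1 h columns are almost wholly in the colour of decrease, the 18 h columns mixed, and the column of KO against WT at 0 h has 9 dots, all for lower values in KO.

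Before LPS, KO cells carried less Pol II on part of this set. At 0 h 9 of 44 members were lower in KO and 0 higher, with a median difference of -0.39 and 37 of 44 below 0, against 2.73% lower, 4.23% higher and a median of 0.04 over 13230 genes. The 9 were the helicase genes Mcm4, Mcm5 and Mcm6, the deoxynucleotide genes Rrm1 and Tyms, cyclin A2 (Ccna2), E2f8, Top2a and Mki67. None of the 7 polymerase and clamp genes passed. Counted without a test, 22 members had all KO libraries under all WT libraries and 1 had the reverse order, against 6.95% and 14.1% of all genes. Leaving out the libraries of replicate 1, 2 or 3 in turn gave 3 to 5 called members, and subtracting the input gave 19, all lower, against 11.4% lower and 4.61% higher of all genes. The KO input of 0 h held more regions (108461) than the WT input (64725).

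Top2a had the largest difference, with 171, 233 and 257 tags in WT and 40.7, 66.3 and 39.9 in KO (log2 difference -1.97 ± 0.31 SE, adjusted p = 0.00045). The highest KO library was far under the lowest WT library. E2f8 had 128, 191 and 145 in WT and 72.2, 58.8 and 52.8 in KO (log2 difference -1.20 ± 0.20 SE, adjusted p = 0.00079), and Rrm1 193, 209.8 and 193 in WT against 61.2, 95.8 and 94.8 in KO (log2 difference -1.17 ± 0.27 SE, adjusted p = 0.011). Mcm5 had 165, 188 and 125 in WT against 68.6, 78.2 and 80.8 in KO (log2 difference -0.96 ± 0.21 SE, adjusted p = 0.0076). None of these groups overlapped. Without replicate 2 the calls of E2f8 and Rrm1 were lost, without replicate 1 those of Rrm1 and Mcm5, and without replicate 3 that of Mcm5. With a pseudocount of 1 Top2a, Mcm5 and Rrm1 were not called, nor was Rrm1 with a common floor.

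The other 5 genes had smaller differences. Mcm6 (chr1:128331590-128359664) had 338, 344 and 348 tags in WT and 203, 196 and 198 in KO, a gap much wider than the range of either group (log2 difference -0.76 ± 0.14 SE, adjusted p = 0.0018). Mcm4 had 129, 167 and 199 in WT against 73.0, 93.7 and 78.0 in KO (log2 difference -0.92 ± 0.25 SE, adjusted p = 0.030), and Tyms 148, 183 and 179 in WT against 92.4, 88.1 and 79.4 in KO (log2 difference -0.89 ± 0.21 SE, adjusted p = 0.013). Mki67 differed by -0.52 and Ccna2 by -0.50, with adjusted p of 0.0050 and 0.047 from limma. The Mki67 libraries lay near each other at the edge of the groups, with the highest of KO at 484 and the lowest of WT at 491.

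The called differences at 0 h lay along the gene bodies; whether body and start differ in this was not tested. Within 500 bp of the start 0 of 44 members were called by limma (5 at an unadjusted p under 0.05, 3 higher and 2 lower in KO), with a median of 0.01, against 2.09% higher and 0.665% lower over all genes. From 500 bp past the start onward, 15 of 43 members tested were lower and 0 higher, with a median of -0.55, against 3.03% lower and 4.02% higher. Top2a had on average 32.4 tags at its start and 188 in its body in WT, and 23.8 and 25.2 in KO. Rrm1 had 24.6 and 174 in WT and 28.9 and 55.1 in KO, and E2f8 24.6 and 130.0 in WT and 26.0 and 35.3 in KO.

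The length under regions at 0 h was shorter in KO, as these descriptive medians show. The median share of the gene window under Pol II regions was 44% in WT cells and 20.9% in KO cells before LPS, 8.64% and 7.50% after 1 h, and 11.1% and 9.53% after 18 h. The median density within covered stretches was 23.5 tags per kb in WT cells and 26.4 in KO cells before LPS, 17.1 and 17.3 after 1 h, and 27.3 and 28.8 after 18 h. For Mcm6 the covered share before LPS was 65.9% (WT) and 38.1% (KO), and for Top2a 44.2% and 8.48%. Not all members followed this: Ccnd1 was covered over 100% of its window in both genotypes at 0 h and still had fewer tags per covered kb in KO (95.7) than in WT (124). Whether the reads between regions differ was not tested.

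**Figure D3:**
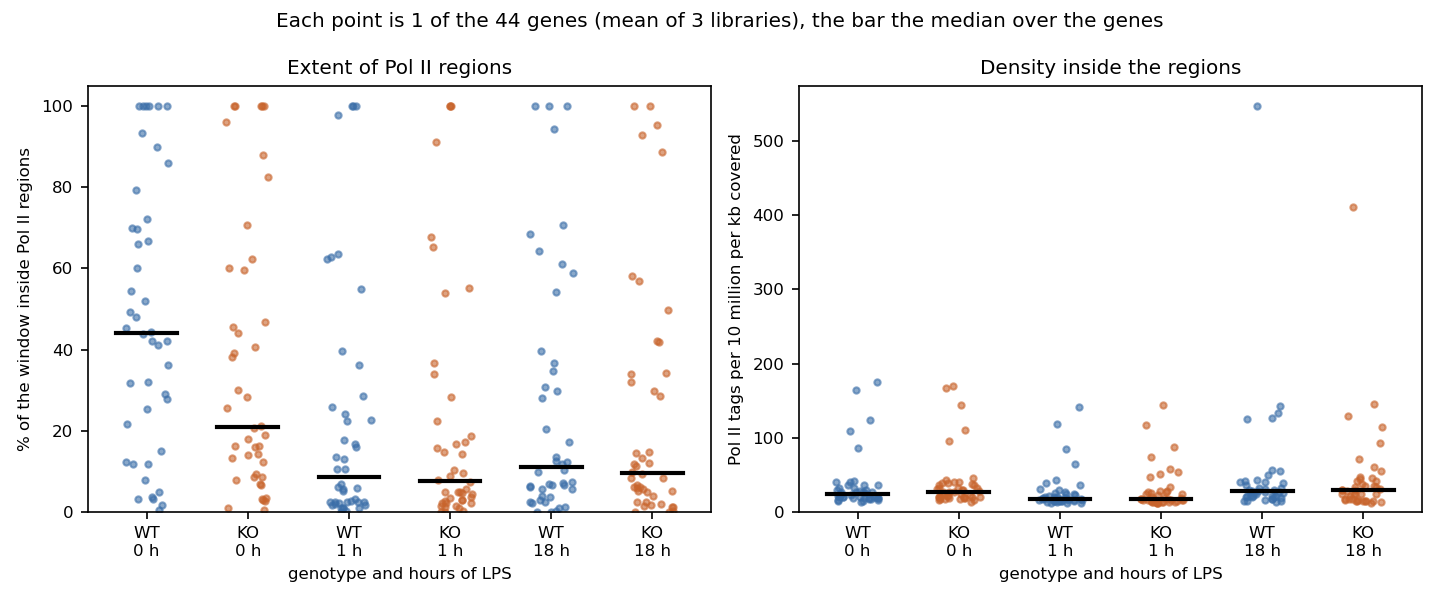
Share of each gene's window covered by Pol II regions (percent) and density of tags within the covered part (tags per kb), each point 1 of the 44 genes and each bar a median, by genotype and hour of LPS. The median cover is 44% in WT and 20.9% in KO at 0 h and much lower later in both, while the median density is 23.5 and 26.4 tags per kb; the high point at 18 h is Mcm5.

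At 1 h of LPS the members differed between genotypes in both directions. Of 42 members tested, 6 were higher and 5 lower in KO, with a median difference of 0.03, against 38.2% higher, 7.49% lower and a median of 0.24 over 12079 genes. Relative to the median of all genes, 3 were higher and 16 lower, against 15.8% and 21.2% of all genes. Kif11 (chr19:37376403-37421859) had 19.0, 23.1 and 23.0 tags in WT and 71.5, 131 and 122 in KO, with every KO library over 3 times the highest WT library (log2 difference 1.86 ± 0.24 SE, adjusted p = 1.5e-05). Bub1b had 11.5, 6.44 and 0 in WT against 21.4, 30.9 and 36.2 in KO (log2 difference 1.36 ± 0.30 SE, adjusted p = 0.0018), a call that was lost without replicate 3. The input of 1 h held more tags in regions over these genes than any Pol II library of 1 h, 185.5 in WT and 188.5 in KO over Kif11 and 108 and 56.4 over Bub1b. Neither difference could be tested with the input subtracted, and the part of the input in them was not tested. Mcm4 (chr16:15623897-15637400) had 19.4, 3.08 and 20.2 in WT against 41.6, 39.8 and 31.9 in KO (log2 difference 1.07 ± 0.25 SE, adjusted p = 0.0023). Mcm3 had 5.69, 0 and 0 in WT and 8.83, 5.88 and 6.90 in KO, levels close to the lowest a region can have (log2 difference 0.56 ± 0.21 SE, adjusted p = 0.038), and was not called without replicate 2, without replicate 3 or when centred on the median. Cdt1, which loads MCM proteins, differed by 0.30, and Mki67 by 0.33. The whole Cdt1 window lies within the annotated gene Gm20388, so its tags cannot be assigned to Cdt1 alone.

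The genes lower in KO at 1 h were Rrm2, Tyms, Pole, Ccne2 and Gins2. Rrm2 had 13.1, 28.7 and 18.1 tags in WT and was listed at 0 in all KO libraries (log2 difference -1.55 ± 0.20 SE, adjusted p = 1.8e-05, which depends on the pseudocount). Tyms had 32.2, 31.5 and 15.5 in WT against 16.8, 14.4 and 10.3 in KO (log2 difference -0.58 ± 0.21 SE, adjusted p = 0.032), with the highest KO library above the lowest WT library. Pole, the catalytic subunit of the leading-strand polymerase, had 19.8, 16.1 and 20.7 in WT against 9.16, 8.67 and 14.9 in KO (log2 difference -0.47 ± 0.17 SE, adjusted p = 0.035), and turned to 1.05 when the input was subtracted. Ccne2, a second E-type cyclin, had 272, 239 and 269.7 in WT against 209, 201 and 169.7 in KO (log2 difference -0.41 ± 0.11 SE, adjusted p = 0.0049), and 45.9% of its window is shared with Ints8. Gins2, of the GINS complex, had 70.6, 59.1 and 71.3 in WT against 50.6, 51.5 and 46.1 in KO (log2 difference -0.37 ± 0.15 SE, adjusted p = 0.048), and its whole window lies within Gm20388 and Gse1. Gins2 lost its call when any replicate was left out, with the replicate number as a block and with the input subtracted. Tyms and Pole lost theirs without replicate 1 and without replicate 2. Ccne2 lost its call without replicate 3, with the input subtracted and at the start.

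At 18 h KO cells had less Pol II on more members than they had more. Of 41 members tested, 10 were lower and 2 higher, with a median of -0.19, against 13.5% lower, 7.58% higher and a median of -0.10 over 12806 genes. The count depended on scaling: relative to the median of all genes 4 were lower and 3 higher (7.8% and 15.3% of all genes), with the input subtracted 4 lower and 15 higher (6.3% and 32.0%), and without replicate 1, 2 or 3 in turn 3 to 5 were called. The KO input of 18 h held fewer regions (27554) than the WT input (95554). E2f2 had 129, 147 and 142 tags in WT and 53.9, 51.7 and 14.8 in KO, with all KO libraries under the WT ones (log2 difference -1.69 ± 0.33 SE, adjusted p = 0.0014), and lost its call without replicate 3. Bub1, a spindle checkpoint kinase, had 18.9, 21.1 and 18.8 in WT against 9.85, 8.41 and 7.43 in KO (log2 difference -0.67 ± 0.14 SE, adjusted p = 0.0027), and lost its call without replicate 2. The input over Bub1 at 18 h held 242.5 tags in WT and 19.7 in KO. The difference could not be tested with it subtracted. Cdk1 had 47.1, 43.3 and 50.9 in WT against 27.1, 27.1 and 25.2 in KO (log2 difference -0.65 ± 0.21 SE, adjusted p = 0.039), and lost its call when any replicate was left out. Gins2 had 106, 87.9 and 69.2 in WT against 56.9, 55.8 and 43.7 in KO (log2 difference -0.64 ± 0.15 SE, adjusted p = 0.0044), and Pcna, the sliding clamp, 664, 693 and 711 in WT against 486, 478 and 469 in KO (log2 difference -0.52 ± 0.06 SE, adjusted p = 5.1e-06). Gins2 lost its call without replicate 1, without replicate 2 and at the start, and its tags are shared with Gm20388 and Gse1. The Pcna regions of 17.2 to 22.4 kb also cover Tmem230, so all tags of Pcna are shared with that gene.

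Ccne1 and Kif11 were higher in KO at 18 h. The Ccne1 values were 131, 129.6 and 176 in WT and 328, 236 and 309.7 in KO, without overlap (log2 difference 0.96 ± 0.22 SE, adjusted p = 0.0055). At the start that difference was -0.50. Without long neighbouring regions it was -0.13, a setting that altered 1 library, KO replicate 2, from 236 to 16 tags. Kif11 had 89.1, 74.8 and 82.8 in WT against 164, 205 and 99.2 in KO (log2 difference 0.80 ± 0.24 SE, adjusted p = 0.025), and its difference went to 0.00 without those regions, which altered 1 library of 18 h, KO replicate 3, from 99.2 to 10.9 tags. The input over Kif11 at 18 h held 433.8 tags in WT and 47.5 in KO, and with it subtracted the difference was 3.45. Both lost their call without replicate 1, and Kif11 also without replicate 2.

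The test of whether the LPS response differs between genotypes, the response in KO minus that in WT, shares its libraries with the comparisons above. At 1 h 10 of 44 members passed with a positive difference and 1 with a negative one, with a median of 0.41, against 14.2% positive, 4.2% negative and a median of 0.17 over 13426 genes. Without replicate 2 the count of 11 was 2, both positive (2.91% positive and 2.05% negative of all genes), at the start it was 0 (2.03% and 1.56%), and along the body it was 13, all positive (11.3% and 4.03%). The largest were Mcm4, which went from 129, 167 and 199 tags to 19.4, 3.08 and 20.2 in WT but from 73.0, 93.7 and 78.0 to 41.6, 39.8 and 31.9 in KO (log2 difference 1.99 ± 0.35 SE, adjusted p = 0.00092), and Kif11, which went from 72.0, 119 and 108 to 19.0, 23.1 and 23.0 in WT and from 92.0, 90.2 and 126 to 71.5, 131 and 122 in KO (log2 difference 1.81 ± 0.34 SE, adjusted p = 0.0016). E2f8 passed at 1.46, Bub1b at 1.27 (from 20.2, 37.8 and 14.1 at 0 h in WT and 25.9, 23.4 and 24.6 in KO), Mcm5 at 1.24 (at 7.52, 9.17 and 9.14 in KO at 1 h), Mcm3 at 1.10 (from 45.4, 55.9 and 51.6 at 0 h in KO), Mki67 at 0.84 and Ccnd1 at 0.50. Cyclin B1 (Ccnb1) passed at 1.25, with 37.9, 66.6 and 64.3 and 0, 10.6 and 0 tags at 0 h and 1 h in WT and 39.8, 24.2 and 29.0 at 0 h and 6.05, 15.8 and 6.47 at 1 h in KO. Cdk2, the partner of cyclin E, passed at 0.70, with 260.2, 246 and 242 at 0 h and 74.0, 74.8 and 60.1 at 1 h in WT and 193, 201 and 161 at 0 h and 106, 71.3 and 85.9 at 1 h in KO. The negative one was Rrm2 (log2 difference -0.87 ± 0.29 SE, limma's adjusted p = 0.046), which failed when any replicate was left out and with the replicate number as a block. Bub1b passed in 2 of 13 alternatives and was -0.04 at the start, and Ccnd1 failed in 8 of 14. Of the 11, Mcm4 and Cdk2 alone passed without replicate 2, without replicate 3 Bub1b, Ccnb1, Ccnd1, Cdk2 and Mcm3 failed, without replicate 1 Cdk2 failed, and without long neighbouring regions Cdk2 (0.34) and Mki67 (0.45) failed, as did Bub1b, Ccnd1 and Rrm2, which have no such regions and kept their difference.

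At 18 h 6 members passed with a positive difference and 1 with a negative one, with a median of 0.28, against 4.85% positive, 9.93% negative and a median of -0.14 over 13566 genes. Top2a (log2 difference 2.18 ± 0.43 SE, adjusted p = 0.0024), Rrm1 (log2 difference 1.44 ± 0.38 SE, adjusted p = 0.016) and E2f8 (log2 difference 1.29 ± 0.28 SE, adjusted p = 0.0044) had lower values in KO at 0 h and values near those of WT at 18 h. At that time Top2a had 6.89, 10.6 and 0 tags and E2f8 26.1, 38.4 and 28.4 in KO. For Rrm1 the 18 h values were 42.7, 56.1 and 45.3 in WT and 66.3, 59.5 and 53.0 in KO. For Mcm6 they were 73.2, 76.2 and 62.6 in WT against 74.8, 83.2 and 78.2 in KO (log2 difference 0.90 ± 0.19 SE, adjusted p = 0.0043). Ccne1 (1.18) and Ccnd1 (0.61) also passed, the latter with 479, 359 and 468 tags in WT and 541, 495 and 498 in KO at 18 h. Pcna was the negative one (log2 difference -0.46 ± 0.08 SE, adjusted p = 0.0011), with 858, 911 and 928 in WT and 883, 890.4 and 809 in KO before LPS. Without replicate 2 limma called 0 members, against 2.57% positive and 5.69% negative of all genes. Along the body 15 passed (13 positive), against 4.93% and 8.99%, and with the input subtracted 25 passed (24 positive), against 28.1% and 5.0%.

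**Figure D4:**
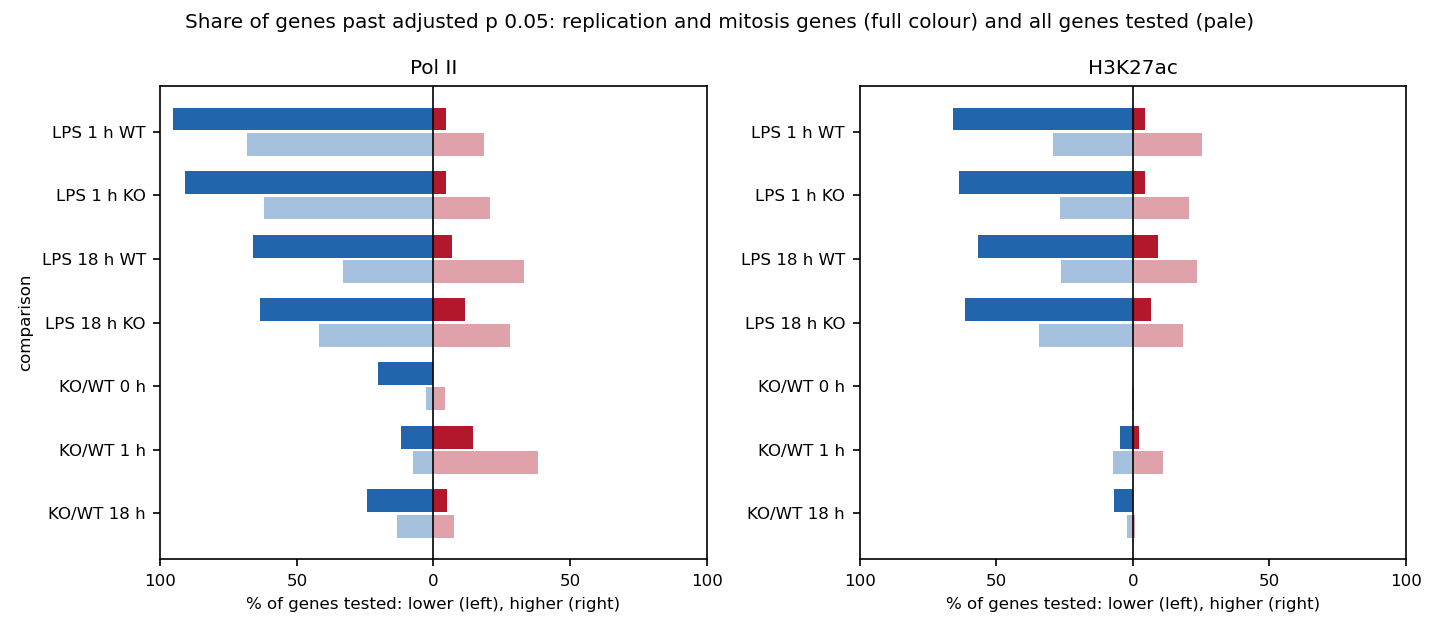
Percent of the genes called lower (to the left) and higher (to the right) in each comparison, for the 44 genes in full colour and for all genes tested in pale colour, with Pol II and H3K27ac in panels of their own. At 1 h of LPS the members' share of lower calls exceeds that of all genes for both antibodies in both genotypes.

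H3K27ac at the starts of these genes also fell with LPS, with medians nearer to 0 than those of Pol II. At 1 h 29 of 44 members were lower and 2 higher in WT, with a median of -0.69, against 29.3% lower and 25.3% higher of 11916 genes. In KO 28 were lower and 2 higher, with a median of -0.63, against 26.5% and 20.4% of 12011 genes. At 18 h 25 were lower and 4 higher in WT, with a median of -0.47, against 26.4% and 23.5% of 11803 genes, and 27 lower and 3 higher in KO, with a median of -0.51, against 34.2% and 18.4% of 11999 genes. Whether the drop differed in size between the antibodies was not tested. The summed H3K27ac of the members was 10899 ± 156 tags at 0 h, 7944 ± 128 at 1 h and 9292 ± 105 at 18 h in WT, and 10480 ± 7.03, 7974 ± 214 and 8332 ± 396 in KO. In KO the libraries labelled replicate 1 had 7852 tags at 1 h and 7997 at 18 h, against 8221 and 7849 (1 h) and 8770 and 8229 (18 h) in the other libraries.

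Cdk1, helicase genes, Rrm2, Tyms, Top2a and Cenpf had the largest called decreases in H3K27ac. Cdk1 had 302, 299.7 and 335 tags at 0 h and 92.9, 85.9 and 91.5 at 1 h in WT (log2 change -1.69 ± 0.15 SE, adjusted p = 1.6e-07) and 312, 317 and 318 at 0 h and 98.7, 78.3 and 70.6 at 1 h in KO (log2 change -1.83 ± 0.15 SE, adjusted p = 1.0e-07, or -1.95 without the library labelled replicate 1). Mcm5 had 234, 266 and 216 at 0 h and 73.3, 73.8 and 75.0 at 1 h in WT (log2 change -1.56 ± 0.22 SE, adjusted p = 2.2e-05). Rrm2 had 123, 106 and 129 tags at 0 h, 35.2, 23.5 and 42.9 at 1 h, then 18.3, 24.4 and 28.9 at 18 h in WT (log2 change -1.94 ± 0.31 SE, adjusted p = 7.0e-05 for 18 h). In all of these the groups did not overlap. Tyms had 92.0, 89.2 and 86.7 at 0 h and 19.3, 14.8 and 18.0 at 18 h in WT (log2 change -1.86 ± 0.24 SE, adjusted p = 8.2e-06), and Mcm3 94.6, 112 and 111 at 0 h and 17.6, 20.5 and 30.9 at 18 h (log2 change -1.83 ± 0.21 SE, adjusted p = 2.7e-06). Cenpf, a kinetochore protein, had 34.2, 23.3 and 27.4 at 0 h, 0, 8.20 and 0 at 1 h and 0 in all libraries of 18 h in both genotypes (fitted -1.93 in WT, no bound).

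In KO cells Cdk1 had 52.0, 93.0 and 68.5 tags of H3K27ac at 18 h (log2 change -2.04 ± 0.15 SE, adjusted p = 1.4e-08) and Top2a went from 103, 107 and 104 to 6.32, 32.6 and 23.6 (log2 change -2.0 ± 0.25 SE, adjusted p = 6.2e-06). These were the largest H3K27ac decreases of any member in the LPS comparisons. Without the library labelled KO 18 h replicate 1 they were -1.86 and -1.60, and this rank was lost, with Rrm2 at -1.94 for 18 h in WT. Mcm5 had 170.0, 176 and 177 before LPS, 50.2, 32.0 and 33.7 at 1 h (log2 change -1.94 ± 0.22 SE, adjusted p = 4.1e-06) and 27.6, 71.2 and 65.5 at 18 h (log2 change -1.59 ± 0.22 SE, adjusted p = 1.9e-05), or -2.10 and -1.23 without the libraries labelled replicate 1. Gins2 went from 91.1, 97.2 and 96.3 to 47.9, 32.3 and 31.0 at 1 h (log2 change -1.17 ± 0.19 SE, adjusted p = 0.00014) and Mcm10 from 161, 137 and 145 to 45.4, 81.1 and 76.2 (log2 change -1.05 ± 0.16 SE, adjusted p = 9.1e-05), or -1.33 and -0.83 without that library. Cenpf had 21.3, 19.2 and 16.7 before LPS in KO (fitted -1.54 at 18 h). None of these groups overlapped.

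Few members gained H3K27ac with LPS. E2f8 had 208, 219.5 and 235 tags at 0 h and 343, 384 and 377 at 1 h in WT (log2 change 0.71 ± 0.19 SE, adjusted p = 0.0057), and 167, 163 and 158 at 0 h and 417, 215 and 207 at 1 h in KO (log2 change 0.67 ± 0.19 SE, adjusted p = 0.010), where the library labelled replicate 1 was far above the other libraries of its group and the change was 0.36 without it. Within 1000 bp of the start the E2f8 change was 0.19 in WT and 0.11 in KO, and neither was called. Both calls were also lost without replicate 2 and without replicate 3. Mki67 had 182, 189 and 191 at 0 h and 444, 430.0 and 452 at 1 h in WT (log2 change 1.20 ± 0.11 SE, adjusted p = 3.7e-07). Again all tags of 1 h were in regions that lie mostly outside its window, so the change without them (-4.30) was fixed by that step. In KO it rose by 1 h from 203, 161 and 159 to 464, 508 and 403 (1.35, or 1.34 without the library labelled replicate 1), and the libraries of 18 h had 339, 248 and 288. At 18 h Bub1 rose in WT from 97.5, 106 and 96.8 to 163, 154 and 140.1 (0.56) and Gins1 from 278, 266 and 275 to 407, 421 and 304 (0.44). The Bub1 call was lost with the input subtracted, without replicate 2 and without replicate 3, and the Gins1 call without replicate 2. Mki67 was then at 392, 361 and 371 in WT (0.96). Cdc45, which joins the helicase, rose from 483, 515 and 489 to 531, 608 and 605 in WT (0.22) and from 481, 517 and 506 to 599, 613 and 571 in KO. In KO Ccne1, at 134, 144 and 158 tags at 0 h and 183, 246 and 221 at 18 h (log2 change 0.54 ± 0.18 SE, adjusted p = 0.021), Mki67 (0.71) and Cdc45 (0.24) were higher, and without the library labelled KO 18 h replicate 1 the changes were 0.65, 0.60 and 0.23. Within 1000 bp of the start Ccne1 changed by 0.047 in KO. The calls of Ccne1 and Cdc45 were lost there, without replicate 2 and without replicate 3. With long neighbouring regions left out Mki67 turned to -2.30 at 1 h and -2.56 at 18 h in KO and to -2.53 at 18 h in WT. That setting removed tags from 2 libraries in each of these 3 groups.

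Between genotypes few H3K27ac differences were called. At 0 h 0 of 44 members were called by limma (9 at an unadjusted p under 0.05, 1 higher and 8 lower in KO), with a median of -0.16, against 0.465% higher and 0.305% lower of 11817 genes. At 1 h 1 was higher and 2 lower, against 11.1% and 7.4% of 11829 genes, and at 18 h 0 of 43 were higher and 3 lower, against 0.951% and 2.29% of 11465 genes. Kif11 was higher in KO at 1 h, with 194, 195 and 199 tags in WT and 366, 353 and 345 in KO (log2 difference 0.82 ± 0.15 SE, adjusted p = 0.0033), as for its Pol II. The input over the start of Kif11 was 17.4 tags in WT and 73.6 in KO at 0 h and 32.7 and 81.8 at 1 h, and with it subtracted the difference was 0.70 (limma, adjusted p = 0.010). Mcm5 had 73.3, 73.8 and 75.0 in WT and 50.2, 32.0 and 33.7 in KO (log2 difference -0.81 ± 0.22 SE, adjusted p = 0.023), and Mcm6 251, 253 and 282 in WT against 212, 184 and 171 in KO (log2 difference -0.45 ± 0.09 SE, adjusted p = 0.0068). At 18 h Cdk1 had 119, 119 and 122 in WT and 52.0, 93.0 and 68.5 in KO (log2 difference -0.71 ± 0.15 SE, adjusted p = 0.013), Bub1 163, 154 and 140.1 in WT against 115, 90.4 and 85.8 in KO (log2 difference -0.61 ± 0.15 SE, adjusted p = 0.033), and Cdk2 217, 228 and 219 in WT against 181, 167 and 159.7 in KO (log2 difference -0.37 ± 0.09 SE, adjusted p = 0.029). In all 6 genes the groups did not overlap, and all 6 calls were lost without replicate 2 and without replicate 3. With the input subtracted Mcm5, Bub1 and Cdk2 were not called. Bub1, whose start had 51.8 tags of input in WT and 0 in KO at 18 h, was then at -0.05. With the replicate number as a block Bub1 was not called (limma, adjusted p = 0.056). Without the libraries labelled KO 1 h and KO 18 h replicate 1 all 6 were called, at 0.80 for Kif11, -0.97 for Mcm5 and -0.54 for Mcm6 at 1 h and -0.53 for Cdk1, -0.73 for Bub1 and -0.42 for Cdk2 at 18 h.

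Without those libraries, far more H3K27ac differences passed, among the members and among all genes. At 0 h 1 member was higher and 10 lower, against 7.95% and 2.48% of all genes. At 1 h 12 were higher and 12 lower, against 35.5% and 24.3%, and at 18 h 1 was higher and 12 lower, against 4.36% and 14.7%. E2f2 is an example, with 77.6, 256 and 269.6 tags in the KO libraries of 1 h in the order of their numbers, where replicate 1 was below and the other two above the 104, 119 and 100.4 of WT. The tests of a differing LPS response called 0 members at 1 h and 0 at 18 h by limma (4 and 7 at an unadjusted p under 0.05), against 0.0987% positive and 0.444% negative at 1 h and 0.166% and 0.464% at 18 h. Without those libraries 12 members were positive and 7 negative at 1 h, against 24.9% and 22.9% of all genes, and 2 were positive and 4 negative at 18 h, against 2.18% and 12.4%. The LPS comparisons without them gave 30 lower and 4 higher members at 1 h in KO, against 32.3% and 30.2%, and 29 lower and 5 higher at 18 h, against 46.5% and 21.7%. In WT, whose own libraries were the same but shared the new estimate of spread, 34 were lower and 3 higher at 1 h, against 38.2% and 32.4%, and 26 lower and 7 higher at 18 h, against 36.2% and 32.1%.

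Changes in both marks on the same gene tended to share a sign. Across the 44 members, the change in Pol II and that in H3K27ac with LPS at 1 h had Pearson's r = 0.75 in WT and 0.65 in KO, and 40 and 38 members had the same sign. For 18 h the values were 0.61 (WT) and 0.56 (KO), with 33 and 37 of the same sign. Between genotypes r was 0.60 at 0 h over 44 members, 0.39 at 1 h over 42 and 0.58 at 18 h over 41. Over all genes the values of r for LPS were 0.71 (WT, 1 h), 0.63 (KO, 1 h), 0.73 (WT, 18 h) and 0.72 (KO, 18 h). Without the H3K27ac libraries labelled KO 1 h and KO 18 h replicate 1, r over the members was 0.51 in KO at 1 h (38 of the same sign), 0.63 in KO at 18 h (35), 0.20 between genotypes at 1 h and 0.69 at 18 h. Genes of a sample share its libraries and are not independent, so these are descriptions.

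**Figure D5:**
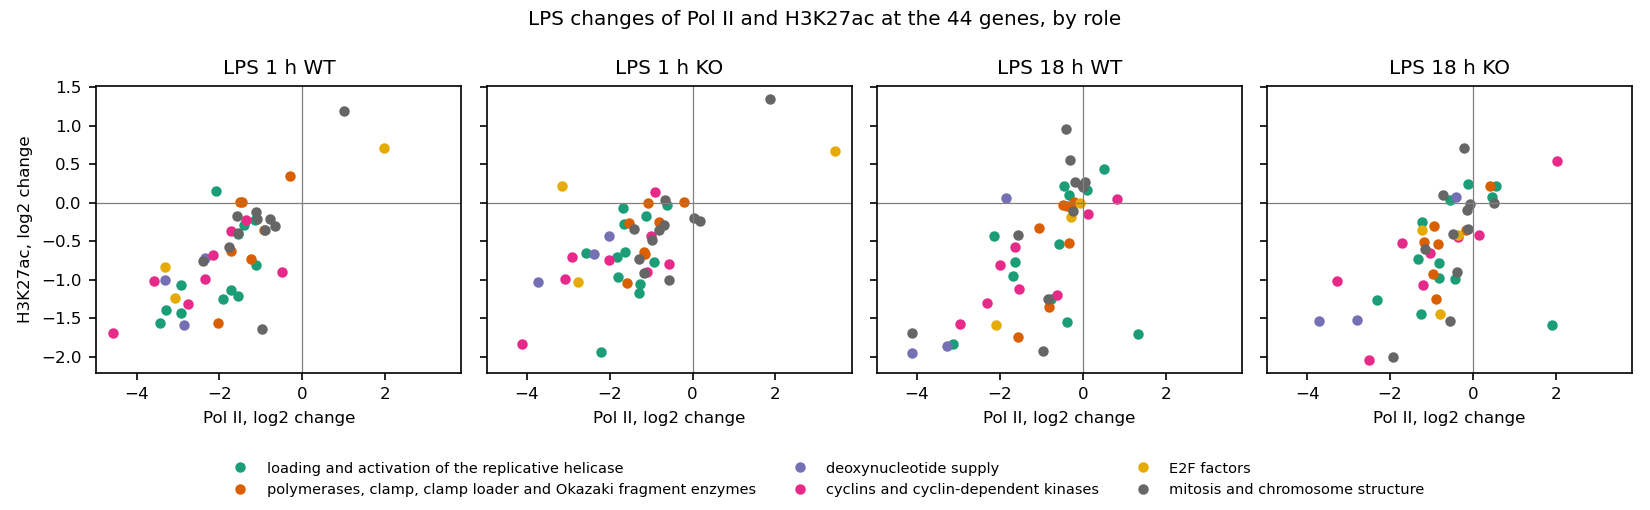
Change in Pol II (log2, horizontal) against change in H3K27ac at the start (log2, vertical) for the 44 genes in the 4 LPS comparisons, each point 1 gene coloured by role. Most points lie below 0 on both axes at 1 h (40 of 44 share a sign in WT and 38 in KO), and E2f8 and Mki67 lie above 0 on both.

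Lists of other genes of the same pathways, which hold none of the 44, are given beside them. The shares over all genes to set beside their counts are, as above, 68.4% lower and 18.6% higher at 1 h in WT, 33.3% and 33.2% at 18 h in WT, and 2.73% and 4.23% for KO against WT at 0 h. Of 31 other replisome genes, 27 had less Pol II and 1 more at 1 h of LPS in WT, 18 less and 5 more at 18 h, and 6 were lower and 1 higher in KO than in WT at 0 h. Rfc2, of the clamp loader, changed by -3.78 and Pole2, of the leading-strand polymerase, by -3.42 at 1 h in WT, and Rpa2, which coats single-stranded DNA, by -3.74 at 1 h in KO. Of 25 other mitosis genes, 22 fell and 1 rose at 1 h in WT, 15 fell and 3 rose at 18 h, and 3 were lower in KO at 0 h. The condensin gene Ncaph changed by -3.21 and Incenp, of the chromosomal passenger complex, by -3.10 at 1 h in WT. The condensin gene Ncapd2 changed by -3.40 at 1 h in KO. In H3K27ac the largest changes of these lists were in Prim1 (-1.98), Pold1 (-1.90), Clspn (-1.83), Ect2 (-1.96) and Nusap1 (-1.66) at 18 h in WT and Ncaph (-1.69) at 1 h.

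Regulators of the cycle formed the other lists. Among the cycle inhibitors and pocket proteins tested for Pol II, 1 rose and 6 fell at 1 h in WT, while at 18 h 6 rose and 2 fell in WT and 6 rose and 3 fell in KO, where 28.0% of all genes rose and 42.1% fell. Cdkn1a, the inhibitor p21, rose at 1 h in WT (log2 change 2.39 ± 0.06 SE, adjusted p = 2.3e-16), Rb1, the retinoblastoma protein, fell (log2 change -4.65 ± 0.15 SE, adjusted p = 6.2e-15), and Rbl1, a pocket protein that binds repressor E2Fs, rose at 18 h in KO (log2 change 2.36 ± 0.10 SE, adjusted p = 3.2e-13). Of 18 other regulators, 15 fell and 3 rose at 1 h in WT, 9 fell and 2 rose at 18 h, and 2 were lower in KO at 0 h. Ccnd2, cyclin D2, rose at 1 h in KO (log2 change 3.54 ± 0.13 SE, adjusted p = 3.3e-14), while Tfdp1, the partner of E2F factors, changed by -2.64 at 18 h in WT and Cdc25b, a phosphatase that activates Cdk1, by -2.36 at 1 h in KO. In H3K27ac at 18 h in WT, E2f7 changed by -2.47, Mybl2 by -2.26 and Cdc25c by -1.81. The inhibitors Cdkn1b (0.96 at 18 h in WT), Rbl1 (0.97 at 18 h in KO, or 1.35 without the library labelled replicate 1) and Cdkn2b (-1.16 at 1 h in KO, or -1.39 without it) had the largest H3K27ac changes of their list.

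Some members share their windows or their regions with other genes, which limits what belongs to them. Windows of 17 of the 44 members overlap another gene, against 33.8% of all genes, and those of Gins2 and Cdt1 do so over 100% of their length. For 16 members some Pol II tags came from regions lying mostly outside the window, and for 10 of them these made up over 50% in some group, namely Aurka, Ccnb2, Cdt1, Fen1, Kif11, Mcm2, Mcm5, Mki67, Pcna and Rfc4. With such regions left out, 36 members fell and 3 rose at 1 h of LPS in WT, against 59.8% and 19.0% of all genes, and 33 fell and 3 rose in KO, against 54.2% and 20.9%. At 18 h 21 fell and 3 rose in WT, against 31.4% and 28.8%, and 21 fell and 6 rose in KO, against 38.0% and 25.0%. Mki67 at 1 h and Mcm5 at 18 h were then at 0 in every library, since such regions held all their tags.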

How the data were processed

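Libraries were grouped by the genotype, antibody and hour of LPS in their titles. The authors aligned reads with HISAT2 2.1.0 to mm10 and called broad enriched regions with HOMER in each library without input, per the submitters' processing notes and the article. Per the file headers, windows of 500 bp at a Poisson p of 0.001 were stitched under 1000 bp apart. Their deposited signal is in tags per 10 M tags of the library. The catalogue number of the Pol II antibody differs between article and labels.

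Tags of a region were shared out by overlap with gene windows of GRCm38, the assembly behind mm10, and 54 genes with duplicate symbols were left out. Genes listed above 0 in at least 2 libraries of a group compared were tested with limma 3.58.1 (R 4.3.3) on log2(tags + 10), with intensity trend, over all 18 libraries of an antibody, and Benjamini-Hochberg adjusted p were taken over all genes tested. Tables were made with Python 3.11.15, pandas 2.3.3 and numpy 2.4.6, and figures with matplotlib 3.10.9. The method was tested on simulated data: for KO against WT at 18 h it recovered 93.5% of genes changed by 1 on the log2 scale for Pol II and 90% for H3K27ac. False calls numbered 10 and 8. The simulation held only genes above 0 in all 18 libraries (10650 for Pol II and 10437 for H3K27ac), so it does not cover members at 0 in some libraries.

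Every member may be named. Library values are given for the 4 largest called changes with non-overlapping groups in each direction of a comparison, and, whether or not groups overlap, for members called in the rarer direction; every called interaction is given. Of each other list up to 3 genes per antibody are named, those with the largest called changes. Alternatives were a pseudocount of 1, no filter, centring on the median, a common floor, input subtraction, leaving out each replicate, a replicate block, narrower windows, gene bodies alone and shared bases left out. Leaving out long neighbouring regions (under 50% inside the window and reaching over 5000 bp past it) and WT replicate 1 at 0 h were added after seeing the data. A further list of cell markers is not reported here. The members and lists were chosen with earlier results of these data known.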

Additional observations from a re-analysis of the deposited data

Results flagged for a closer look

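For 18 results the test of the difference itself, limma's genotype by LPS interaction, found a Pol II response to LPS that differed between KO and WT. Of all genes, 14.2% passed with a positive and 4.2% with a negative difference at 1 h, and 4.85% and 9.93% at 18 h. At 1 h the response in KO minus that in WT, on the log2 scale, was 1.99 for Mcm4, 1.81 for Kif11, 1.46 for E2f8, 1.27 for Bub1b, 1.25 for Ccnb1, 1.24 for Mcm5, 1.10 for Mcm3, 0.84 for Mki67, 0.70 for Cdk2, 0.50 for Ccnd1 and -0.87 for Rrm2. At 18 h it was 2.18 for Top2a, 1.44 for Rrm1, 1.29 for E2f8, 1.18 for Ccne1, 0.90 for Mcm6, 0.61 for Ccnd1 and -0.46 for Pcna. Without replicate 2, called interactions numbered 2 at 1 h and 0 at 18 h.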

How the results depend on the processing

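The counts below are of members called, and the cause of each change was not tested unless the setting holds fewer libraries or bases. Of 98 results on single members, 36 passed the threshold in every alternative. In some alternative 55 missed it with their sign kept, and in some 23 changed sign, whether or not they then passed. Results can be in both of these counts. For Pol II, KO against WT at 0 h (9 called) went to 3 with a pseudocount of 1, 14 when centred, 19 with the input subtracted, 0 at the start and 15 along the body, and to 3 to 5 with 1 replicate left out. KO against WT at 1 h (11) went to 19 when centred, and to 6 to 8 with 1 replicate left out. KO against WT at 18 h (12) went to 7 with a pseudocount of 1, 7 when centred, 19 with the input subtracted, 4 without long neighbouring regions and 2 at the start, and to 3 to 5 with 1 replicate left out. LPS at 18 h went to 21 at the start in WT (32) and in KO (33). The interaction at 1 h (11) went to 7 without long regions and 0 at the start, and to 2 to 10 with 1 replicate left out. The interaction at 18 h (7) went to 4 with a pseudocount of 1, 12 when centred, 25 with the input subtracted, 2 at the start and 15 along the body, and to 0 to 5 with 1 replicate left out.

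For H3K27ac, subtracting the input gave 1 called member for KO against WT at 0 h, 8 at 1 h, 6 at 18 h and 3 for the interaction at 18 h, and centring gave 5 for KO against WT at 1 h. With 1 replicate left out the counts ran from 0 to 1 at 0 h, 0 to 20 at 1 h and 0 to 12 at 18 h for KO against WT, from 0 to 16 for the interaction at 1 h and from 0 to 1 at 18 h. For LPS they ran from 20 to 36 at 1 h and 20 to 34 at 18 h in WT, and from 16 to 30 and 19 to 32 in KO. Without the libraries labelled KO replicate 1 at 1 h and 18 h the counts were 11, 24 and 13 for KO against WT at 0, 1 and 18 h and 19 and 6 for the interactions.

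Signs turned at the start for KO against WT in E2f8 (0.053) and Rrm1 (0.19) at 0 h, Gins2 (0.41) and Tyms (0.089) at 1 h and Ccne1 (-0.50) at 18 h. They turned there for LPS at 18 h in Gins1 (-0.036 in WT, -0.19 in KO), Ccne1 (-0.39 in KO) and Ccnb2 (0.0071 in KO), and for the interactions of Bub1b (-0.044) at 1 h and Ccne1 (-0.54), E2f8 (-0.42), Mcm6 (-0.12) and Rrm1 (-0.12) at 18 h. Along the body Mcm5 turned to -3.67 in WT and -2.35 in KO at 18 h of LPS. With the input subtracted Pole turned to 1.05 for KO against WT at 1 h and Gins1 to -0.37 for LPS at 18 h in WT. Without long regions Ccne1 turned to -0.13 for KO against WT at 18 h, through 1 library. With LPS, Mki67 turned to -4.84 in WT and -4.39 in KO at 1 h for Pol II, and Mcm5 to -4.02 and -3.10 at 18 h. In these the setting left every library of that hour at 0, so the values are no bound. The H3K27ac of Mki67 turned to -4.30 and -2.53 in WT and -2.30 and -2.56 in KO at 1 h and 18 h.

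Same-numbered libraries did not deviate together (correlations of -0.07 to 0.11 for Pol II and -0.43 to 0.08 for H3K27ac), and the main fit treats libraries as unpaired. Whether equal numbers mark the same animal or culture is not stated in the sources, and these correlations cannot show it. With the replicate number as a block the Pol II counts were 10, 11 and 12 for KO against WT, 44 and 32 for LPS in WT, 42 and 33 in KO, and 10 and 7 for the interactions. The H3K27ac counts were 0, 3 and 2 for KO against WT, 30 and 29 for LPS in WT, 26 and 29 in KO, and 0 and 0 for the interactions. Depth limits low values: the fewest tags a region needs vary with depth, and genes near 0 rest on the pseudocount.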
